A study of Mus musculus with 4 samples.

Results

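The 10 genes described here encode proteins of the basement membrane: the type IV collagen chains Col4a1, Col4a2 and Col4a5, the laminin chains Lama2, Lama4 and Lamc1, the nidogens Nid1 and Nid2, the heparan sulphate proteoglycan Hspg2 (perlecan), and the collagen-binding matricellular protein Sparc. They were chosen by gene symbol from 40091 genes listed in 4 single-nucleus RNA-seq libraries of mouse thalamus, and all 10 were found. The libraries came from wild-type (WT) C57BL6 mice that were 7 to 8 weeks old when bought. In the COL group, Coll IV (0.01 U in 10 nl of saline), a bacterial collagenase that breaks collagen and so ruptures vessels, was delivered to the VPM and VPL of the right side, the ventral posterior nuclei of the thalamus. The NS group received 10 nl of saline at the same site. Tissue was taken 7 days later, and each library pooled 3 mice, so a group is 2 pooled libraries (NS1 and NS2, COL1 and COL2). Spread within a group is therefore spread between pools, not between single animals.

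A basement membrane is a thin sheet of extracellular matrix under endothelium and around pericytes and smooth muscle, and in the brain a second sheet lies under the astrocyte endfeet. Laminins, trimers of an alpha, a beta and a gamma chain, form the first network on the cell surface. Type IV collagen, a triple helix of alpha chains, forms the second network, and nidogens and perlecan tie the networks together. Collagenase acts on the collagen protein. What was measured here is RNA in nuclei, so the values say nothing of how much protein remained.

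After removal of nuclei with 50 or fewer genes or 5% or more mitochondrial counts, 9673 (NS1), 10422 (NS2), 5931 (COL1) and 6265 (COL2) nuclei were left, with 68723738 to 77546840 UMIs (unique molecular identifiers, that is, counted molecules) per library. The median depth was 6489 and 4649 UMIs per nucleus in NS1 and NS2, and 8664 and 8691 in COL1 and COL2, so nuclei of the COL group were read more deeply. Between 8 and 31 cell barcodes were shared by any pair of libraries. Nuclei were assigned to a class by marker genes that include no member, which placed 29496 of 32291 nuclei. Y-linked transcripts were detected at similar levels in all 4 libraries (Uty, 124 to 138 CPM, the share of a library's UMIs scaled to 1000000) and Xist was near 0 (0.144 to 0.187 CPM). The libraries were thus alike in these sex-linked transcripts, and Col4a5 is X-linked. The groups stood apart in Malat1 (60385 and 86968 CPM in NS, 33739 and 52433 CPM in COL) and in Ttr (0.56 and 0.39 against 2.48 and 1.74 CPM). The labels name neurons and glia. Nuclei with endothelial, mural (pericyte and smooth muscle) or fibroblast markers were also present, although rare. They numbered 42 in NS1, 63 in NS2, 29 in COL1 and 45 in COL2. Endothelial nuclei numbered only 6, 11, 7 and 11 in that order of libraries, mural nuclei 32, 25, 9 and 14, and fibroblast nuclei 4, 27, 13 and 20. None of these classes reached 10 nuclei in every library, so they were summed into 1 vascular class for testing, a choice made after the numbers were seen. In their own class, 15 of 15 endothelial, 9 of 11 mural and 10 of 10 fibroblast markers had their highest level. These markers also assigned the nuclei, so this is no independent check of the names. Of the 179 vascular nuclei, 139 lay in the vascular cluster of an unsupervised clustering, and 13 of 64 fibroblast nuclei lay in clusters of neurons. In fibroblast nuclei, neuron markers summed to 5329 and 4117 CPM in NS and 2793 and 2849 CPM in COL. Fibroblast markers there summed to 2088 and 2047 against 3023 and 2545 CPM.

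Type IV collagen genes lie in head-to-head pairs, and 2 of the members form such a pair. In GRCm38 (mm10), with GENCODE M21 annotation, Col4a1 (ENSMUSG00000031502) is at chr8:11198423-11312826 on the minus strand and Col4a2 (ENSMUSG00000031503) at chr8:11312805-11449287 on the plus strand. Their first exons overlap by 22 bases, chr8:11312805-11312826. These bases are shown on each strand because a single stretch of DNA begins both transcripts.
Col4a2, plus strand: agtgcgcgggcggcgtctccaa
Col4a1, minus strand: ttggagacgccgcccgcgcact

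Col4a5 (ENSMUSG00000031274) is at chrX:141475385-141689234 on the plus strand. Its partner Col4a6, which is not a member but belongs to the list of other basement membrane proteins, is at chrX:141165403-141474076 on the minus strand, and 1308 bases separate the outermost annotated starts. The upstream bases of this pair are shown because both genes were higher in the same classes of glia after collagenase (below). The sequences are those of RefSeq for GRCm38.p6, chrX:141475169-141475384 on the plus strand for Col4a5 and chrX:141474077-141474326 on the minus strand for Col4a6. Capitals mark matches to 1 of 5 motifs searched on both strands: TGANTCA for AP-1, GGGCGG for Sp1, CCAAT for the box of that name, GGAATG for TEAD and TTCNNNGAA for STAT. No matches overlap in the stretches printed.
Col4a5: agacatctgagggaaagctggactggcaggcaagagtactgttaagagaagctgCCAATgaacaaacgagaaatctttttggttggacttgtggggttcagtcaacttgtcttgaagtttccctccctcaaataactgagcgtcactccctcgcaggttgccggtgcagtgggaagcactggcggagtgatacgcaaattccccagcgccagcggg
Col4a6: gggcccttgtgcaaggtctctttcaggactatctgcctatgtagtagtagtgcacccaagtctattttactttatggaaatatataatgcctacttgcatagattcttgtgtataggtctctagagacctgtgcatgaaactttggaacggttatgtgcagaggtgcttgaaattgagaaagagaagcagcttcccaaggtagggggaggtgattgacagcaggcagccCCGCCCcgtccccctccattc

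Windows of 250 bases before the RefSeq start were held for 7 of the 10 members. CCAAT was found in the windows of Col4a1, Col4a2, Col4a5 and Nid1, against 33.8% of all 32851 windows. The Sp1 letters were found in those of Col4a2, Col4a5, Nid1 and Hspg2, against 32.7%, and the Col4a5 match lies downstream of the stretch printed above. GGAATG was found in that of Nid1, against 12.6%. The AP-1 and STAT letters were in none of the 7 windows, against 6.7% and 7.0% of all windows. A match is only a match of letters. The remaining members are Lama2 (chr10:26980036-27619758, minus strand), Lama4 (chr10:38965515-39110188, plus), Lamc1 (chr1:153218922-153332786, minus), Nid1 (chr13:13437551-13512269, plus), Nid2 (chr14:19751265-19811787, plus), Hspg2 (chr4:137468769-137570630, plus) and Sparc (chr11:55394500-55423183, minus). Each member is an annotated protein-coding gene.

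The first question was which nuclei carry the members. All 10 had their highest mean level in the vascular class, and each was higher there than in the remaining nuclei of the same library in 4 of 4 libraries. In edgeR's quasi-likelihood test with the library as a block, 10 of 10 members passed an adjusted p of 0.05 and were higher in vascular nuclei, where 14.4% of the 23568 genes tested passed in either direction and 5.78% were higher. The log2 difference from the rest was largest for Nid1, which bridges laminin and collagen IV, at 6.36 ± 0.34 (SE), and was 5.37 ± 0.55 for Hspg2, 4.94 ± 0.24 for Lama4 and 4.78 ± 0.23 for Col4a5. It was smallest for Col4a2, at 1.60 ± 0.20, and the largest adjusted p was 9.79e-09, for Nid2. The median over the 10 members was 3.52 on the log2 scale, against -0.26 over all genes tested. Of 24 other basement membrane proteins, 15 were higher in vascular nuclei, with the smallest adjusted p for Col4a6 (6.49 ± 0.26), Lama1 (4.61 ± 0.22) and Egflam (4.33 ± 0.22), and 1, Fras1, was lower (-1.69 ± 0.24). Of the 16 genes of collagen assembly and crosslinking 6 were higher and 0 lower, among them the collagen chaperone gene Serpinh1 (4.09 ± 0.66), Creb3l1 (3.83 ± 0.64) and the lysyl oxidase Lox (6.52 ± 1.16). Of the 14 laminin and collagen receptors 4 were higher, among them Itga1 (6.65 ± 0.23), Ddr2 (5.18 ± 0.47) and Itgb1 (0.98 ± 0.21), and 1, Ddr1, was lower (-0.87 ± 0.24). Of the 11 genes of fibrillar collagens and interstitial matrix 10 were higher, among them Col1a2 (6.77 ± 0.27), Col3a1 (8.33 ± 0.35) and Col5a2 (4.94 ± 0.32).

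**Figure D1:**
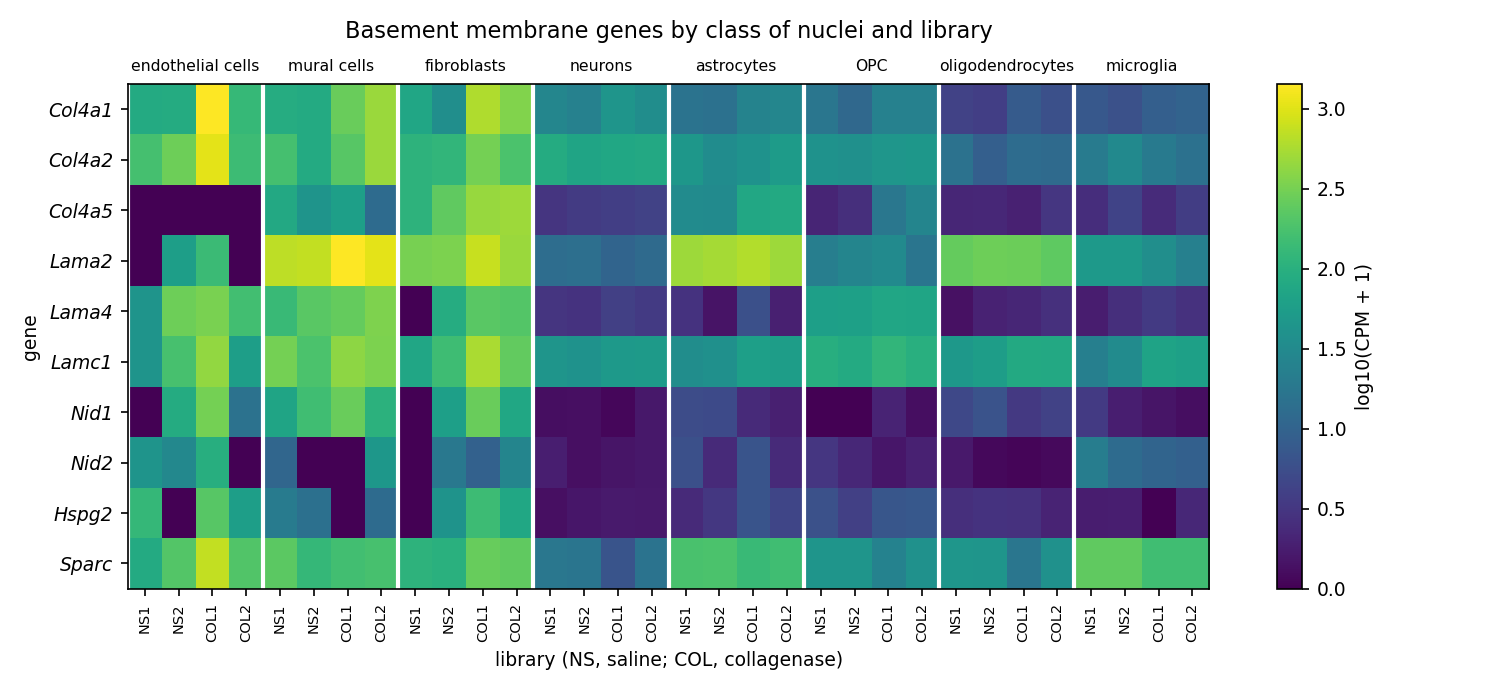
Level of each of the 10 genes, as log10(CPM + 1) by colour, in the 4 libraries of 8 classes of nuclei; each column is 1 library of 1 class. The vascular classes on the left are brightest for most genes, Lama2 is also bright in astrocytes and oligodendrocytes, and Col4a5 is at 0 in endothelial nuclei of all 4 libraries.

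The collagen chains differed in where they were found. Col4a1, an obligate partner of Col4a2 in the common trimer, was at 84.8 (NS1), 53.8 (NS2), 754 (COL1) and 343 (COL2) CPM in vascular nuclei. Neurons came next, with 27.1, 23.5, 43.3 and 33.7 CPM, and oligodendrocytes were low, at 3.20, 2.80, 7.02 and 4.86 CPM. Vascular nuclei did not overlap neurons in level, whereas neurons, astrocytes and OPCs (oligodendrocyte precursor cells) had overlapping ranges. Neurons, the most numerous class, held 70.6% to 82.2% of all Col4a1 UMIs, against 0.746% to 6.85% in the vascular class. Col4a2 also had vascular nuclei first and neurons next, with means of 256 and 77.2 CPM, and neurons stood apart from every class below them.

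Col4a5 had another pattern. Its chain forms the trimers of specialised basement membranes with other alpha chains. In fibroblast nuclei it was at 108, 240, 460 and 490 CPM in NS1, NS2, COL1 and COL2, whereas endothelial nuclei held 0 UMIs of Col4a5 in all 4 libraries. Those endothelial sums were small, and counts of 0 allow levels of up to 52.5 to 155 CPM (exact Poisson 95% bounds per library, which cover counting error only), so a low level would not have been detectable at this depth. Astrocytes followed, at 31.9, 31.7, 77.1 and 82.3 CPM, and their range overlapped that of the vascular class.

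Outside the vascular class, Lama2 had its highest mean level in astrocytes, and Lama4 and Lamc1 had theirs in OPCs. Lama2, the alpha chain of the laminin in parenchymal and muscle basement membranes, was highest in mural nuclei, at 689, 729, 1422 and 1050 CPM. Astrocytes had 484, 533, 613 and 492 CPM and oligodendrocytes 258, 283, 275 and 231 CPM. The vascular and astrocyte ranges overlapped, and astrocytes stood above oligodendrocytes in every library. Lama4, the alpha chain of a vascular laminin, was second in OPCs, at 58.9, 61.4, 72.7 and 69.7 CPM, and no other class outside the vessels had a mean above 2.36 CPM. OPC nuclei were therefore the largest single source of Lama4 UMIs in NS1, NS2 and COL2 (48.2%, 47.4% and 48.0% of the library's total), while in COL1 they held 32.8% and neurons 35.8%. Lamc1, the gamma chain shared by most laminins, was present in every class with tested sums, with OPCs second at 92.8, 84.2, 116 and 96.0 CPM. Neurons, however, held 49.8% to 64.7% of the Lamc1 UMIs of a library, and OPCs 5.12% to 7.33%.

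Among the linkers, Nid1 and Hspg2 had levels far higher in vascular nuclei than in any other class. Nid1 was at 45.7, 86.1, 283 and 69.7 CPM in vascular nuclei, and its next highest mean was 3.67 CPM, in oligodendrocytes. Hspg2 was at 32.6, 28.7, 133 and 56.8 CPM in vascular nuclei, against a mean of 5.06 CPM in OPCs. Vascular nuclei were few, however, and held 8.05%, 19.0%, 64.1% and 26.5% of the Nid1 UMIs and 7.46%, 10.1%, 27.2% and 21.2% of the Hspg2 UMIs in NS1, NS2, COL1 and COL2. Oligodendrocytes held 21.4% to 50.0% of Nid1 UMIs and neurons 25.96% to 29.8% of Hspg2 UMIs. Nid2, a second nidogen, was rarer, with 2 to 10 UMIs per library in the vascular class, and its vascular range of 13.1 to 30.0 CPM overlapped that of microglia, 8.22 to 21.0 CPM. Sparc was shared by vascular nuclei, microglia and astrocytes, whose means of 222, 197 and 162 CPM had overlapping ranges.

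Likeness to Col4a1 was measured as Pearson's r of log2(CPM + 1) over 28 sums of a class in a library, among 13760 genes with a mean of at least 5 CPM. These sums share libraries and depth, so r is only a description. The 5 most similar genes were Col4a2 (r = 0.948), Plxna2 (0.934), Kirrel (0.929), Flrt2 (0.916) and Ror1 (0.916). Among the members, r was 0.772 for Col4a5 and 0.764 for Hspg2, and only 0.251 for Lama2 and 0.259 for Sparc.

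The second question was what changed after collagenase. Within each class, the summed UMIs of COL and NS libraries entered edgeR's quasi-likelihood test, and p-values were adjusted by Benjamini and Hochberg's method over every gene tested in that class. Adjusted p-values below are from it unless DESeq2 is named. In an unsupervised clustering, the cluster that held the largest share of a class differed between the groups for neurons (45.9% of NS in cluster 0, 46.8% of COL in cluster 2), oligodendrocytes (50.3% in cluster 1, 80.4% in cluster 3), OPCs (68.2% in cluster 14, 86.3% in cluster 11), astrocytes (89.4% in cluster 5, 87.3% in cluster 18) and microglia (82.0% in cluster 12, 66.5% in cluster 10), so each comparison is between groups whose nuclei also differ in many other genes. The share of all tested genes that passed was 21.4% in oligodendrocytes, 13.4% in OPCs, 13.5% in astrocytes, 19.8% in microglia, 0.195% in the vascular class and 0.00854% in neurons. Of the members, 1 of 9 tested passed in oligodendrocytes, 1 of 8 in OPCs, 3 of 9 in astrocytes, 2 of 6 in microglia, 0 of 9 in the vascular class and 0 of 10 in neurons. Against those backgrounds, the members were not called more often than other genes in oligodendrocytes and OPCs by count, and the numbers are small in astrocytes and microglia. The members not tested in a class had too few UMIs: Nid2 in oligodendrocytes and the vascular class, Nid1 and Nid2 in OPCs, Lama4 in astrocytes, and Col4a5, Lama4, Nid1 and Hspg2 in microglia.

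**Figure D2:**
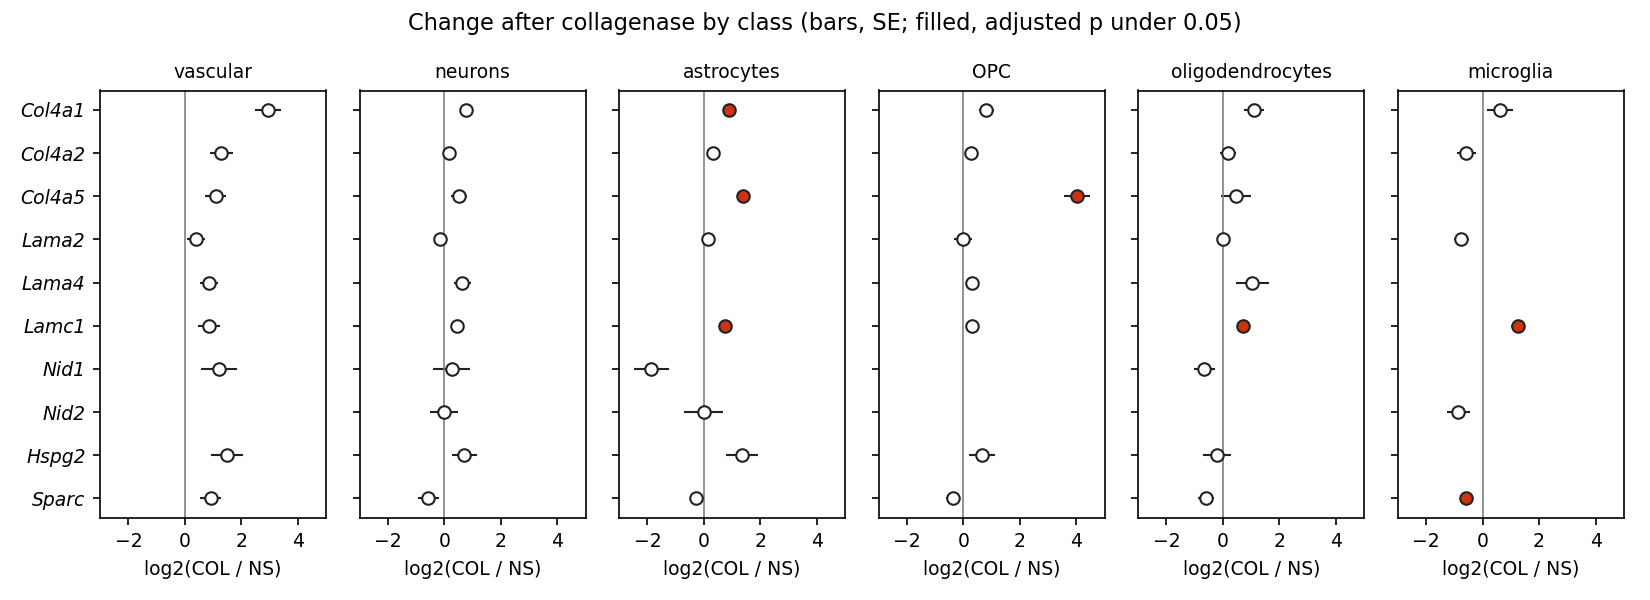
Fitted log2 ratio of COL to NS (x axis) of each gene in 6 classes of nuclei; bars are standard errors, filled points passed an adjusted p of 0.05, and a gene without a point was not tested. Col4a1 lies to the right of 0 in all 6 classes, and Col4a5 in OPCs, at 4.02, rests on 3 and 4 UMIs in the NS libraries.

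In the vascular class, Col4a1 was at 84.8 and 53.8 CPM in NS and 754 and 343 CPM in COL. The exact Poisson 95% intervals, which cover counting error only, were 45.2 to 145 and 30.1 to 88.8 CPM in NS and 647 to 874 and 287 to 407 CPM in COL. Both COL libraries were above both NS libraries. The fitted log2 change was 2.95 ± 0.47 (SE), and at an adjusted p of 0.0521 it missed the threshold. It did pass with DESeq2 (adjusted p = 9.85e-05), with RLE size factors in place of TMM (0.0484), and when only vascular nuclei of the vascular cluster were used (0.0242), but not when nuclei were thinned to at most 2000 UMIs (1.79, adjusted p = 0.141). In the model over all classes, the collagenase effect on Col4a1 was larger in vascular nuclei than the mean effect in the other classes by 2.08 ± 0.33 on the log2 scale (adjusted p = 0.00143). This difference also ended with thinning (1.01, adjusted p = 0.571). The model over all classes estimated a gene's spread from all classes together. Its SE and p therefore do not measure the spread between the vascular sums alone. Of all genes, 0.718% passed that test in vascular nuclei. For the other classes the share was 0.365% in OPCs, where 1 member passed, and 2.93% in neurons, 4.74% in oligodendrocytes, 0.576% in astrocytes and 3.22% in microglia, where 0 members passed.

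The Col4a1 counts of the COL libraries leaned on single nuclei. In COL1 1 nucleus held 86 of the 91 UMIs of the 7 endothelial nuclei, and with it the endothelial value was 1410 CPM. In COL2 1 nucleus held 43 of the 133 UMIs of the vascular class. Without the nucleus with most Col4a1 UMIs in each library, the vascular values were 72.8, 47.2, 451 and 246 CPM, and the 2 groups still did not overlap. Col4a1 UMIs were found in 12 of 42, 12 of 63, 19 of 29 and 25 of 45 vascular nuclei, at median depths of 2114.5, 2733, 6448 and 6367 UMIs. Mural nuclei were at 88.6, 82.6, 273 and 473 CPM and fibroblast nuclei at 72.0, 35.1, 605 and 360 CPM, so the groups were apart in each of these parts. These sums were small, with 9, 6, 14 and 41 UMIs in mural and 2, 6, 71 and 83 in fibroblast nuclei. In COL2 1 mural nucleus held 27 of the 41, and 1 fibroblast nucleus 43 of the 83. Without the top nucleus of each library, mural values were 70.3, 57.6, 174 and 197 CPM and fibroblast values 107, 23.8, 465 and 191 CPM. The part of the depth difference in these values was not tested beyond the thinning.

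Col4a2 was at 157, 129, 497 and 240 CPM in the vascular class (log2 change 1.30 ± 0.40, adjusted p = 0.152). In COL1 1 nucleus held 59 of its 116 UMIs, without which the level there was 286 CPM. Sparc, at 369 CPM in COL1, likewise had 38 of 86 UMIs in 1 nucleus and was at 241 CPM without it. The fitted change of Col4a2 was 0.73 without COL replicate 1 (adjusted p = 0.514), 1.77 without COL replicate 2 (adjusted p = 0.00125) and 0.26 after thinning to 2000 UMIs per nucleus (adjusted p = 0.830). Every other tested member had a fitted change above 0 in the vascular class, from 0.39 ± 0.30 for Lama2 to 1.499 ± 0.56 for Hspg2, and none passed. The groups overlapped for Nid1, at 45.7 and 86.1 CPM in NS and 283 and 69.7 CPM in COL. The top nucleus of COL1 for each gene held 12 of 31 UMIs of Hspg2, 16 of 66 of Nid1 and 15 of 60 of Lama4. Hspg2 had 5 and 8 UMIs in NS and 31 and 22 in COL and passed the filter only through COL. At an unadjusted p under 0.05, 6 of the members, Hspg2 among them, and 979 of all genes passed, and DESeq2 called 1 member, Col4a1, among 43 of the 5647 genes. The make-up of the class moved with it. The summed level of endothelial markers was 1351 and 1292 CPM in NS and 4625 and 2235 CPM in COL, that of fibroblast markers 633 and 1414 against 1745 and 1685 CPM, and mural nuclei were 32 of 42 (NS1), 25 of 63 (NS2), 9 of 29 (COL1) and 14 of 45 (COL2). Neuron markers summed to 3054 and 3485 CPM in the vascular class of NS and to 2118 and 2570 CPM in that of COL. The part of these shifts in the members' values was not tested. Without COL replicate 2, 6 members passed, but so did 383 of 6452 genes, against 11 of 5647 with all libraries. Among the 11 genes of fibrillar collagens and interstitial matrix, 6 were tested and 2 passed, both higher: fibronectin, Fn1 (4.44 ± 0.50, adjusted p = 0.0308), with 4 and 2 UMIs in NS and 64 and 151 in COL, and the fibrillar collagen Col3a1 (3.58 ± 0.50, adjusted p = 0.0459), with 2 and 8 UMIs in NS and 89 and 81 in COL. Both passed the filter through COL, so the size of their changes is not well determined.

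**Figure D3:**
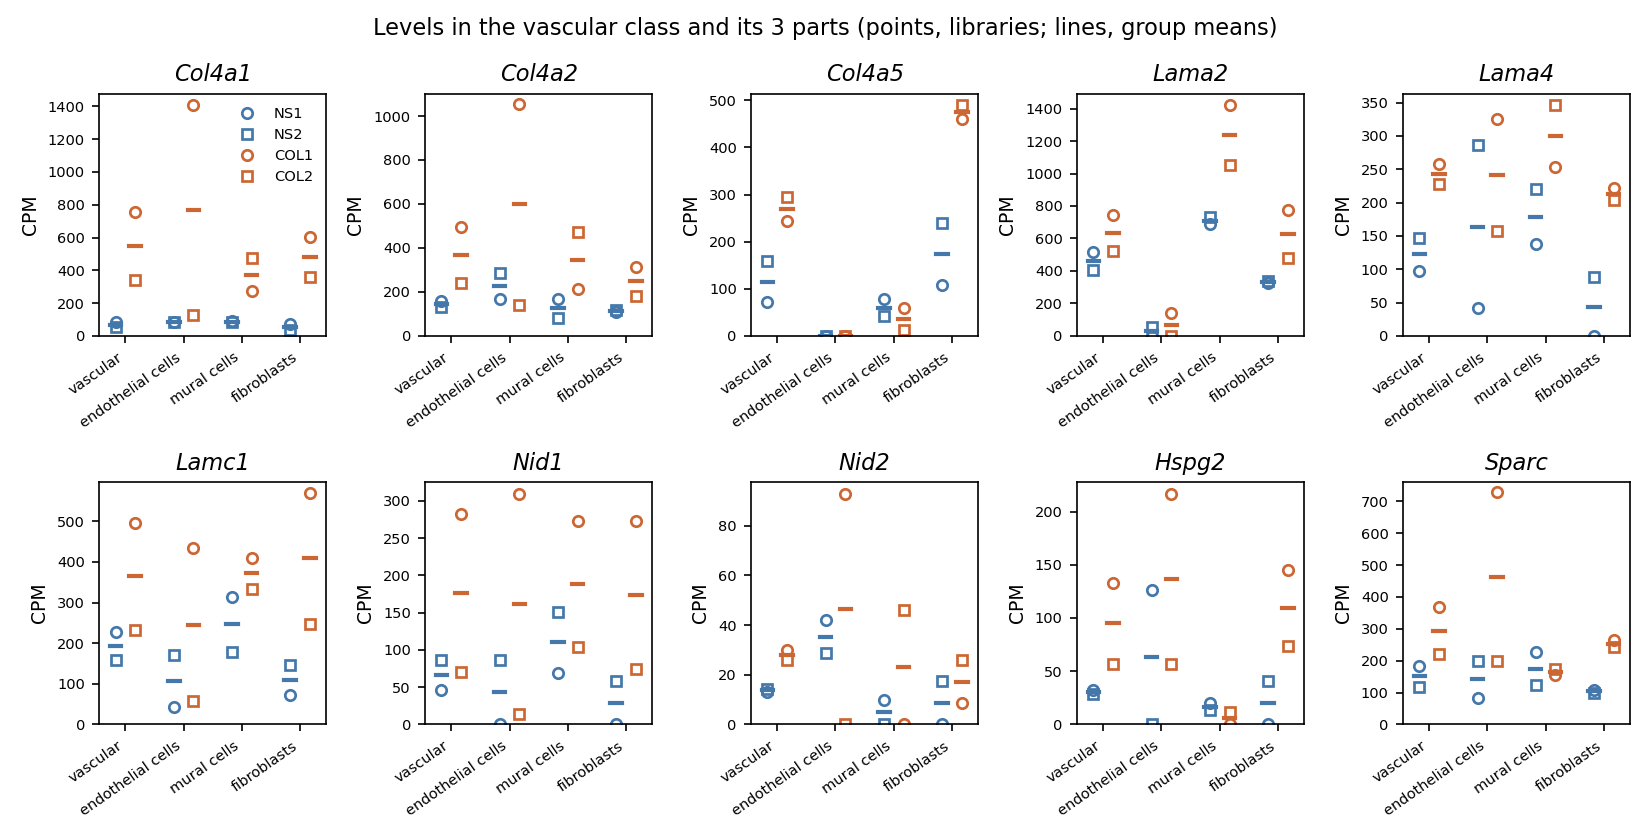
Level in CPM of each of the 10 genes in the vascular class and its endothelial, mural and fibroblast parts; points are single libraries (circles, replicate 1; squares, replicate 2) and lines group means. The endothelial Col4a1 value of 1410 CPM in COL1 stands far above the 128 CPM of COL2, while Col4a1 in mural and fibroblast nuclei is higher in both COL libraries than in both NS libraries.

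Vascular nuclei made up 0.434% and 0.604% of NS libraries and 0.489% and 0.718% of COL libraries. COL exceeded NS by 0.0843 percentage points, less than replicates of a group differed (two-sided p = 0.667 by exact permutation of the 4 libraries, and 0.333 is the smallest p this design allows). Fibroblast nuclei, at 0.0414%, 0.259%, 0.219% and 0.319%, also overlapped between groups (p = 0.667 in the same exact test). Endothelial nuclei were at 0.0620% and 0.106% in NS and 0.118% and 0.176% in COL, and mural nuclei at 0.331% and 0.240% against 0.152% and 0.223%. These groups did not overlap (exact permutation p = 0.333 for each).

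In OPCs, Col4a5 was at 1.09 and 1.66 CPM in NS1 and NS2 (3 and 4 UMIs) and at 16.7 and 26.3 CPM in COL1 and COL2 (31 and 83 UMIs). The groups did not overlap. The gene passed the filter on low counts only through its COL libraries, so a gene this low in NS was tested only where it was higher in COL. Its fitted log2 change of 4.02 ± 0.46 (adjusted p = 0.00129) is therefore given as a description, and its size is not well determined. The same holds for its excess over the mean of the other classes, 3.30 ± 0.50 (adjusted p = 0.00054, a test that 0.365% of all genes passed). After thinning to 2000 UMIs, Col4a5 fell below the filter in OPCs, and the difference between classes was 3.05 with an adjusted p of 0.146.

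A UMI of Col4a5 was found in 0.671% and 0.652% of NS nuclei and in 5.48% and 7.89% of COL nuclei, at median depths of 5125 and 4445.5 and of 7387 and 7992 UMIs. In oligodendrocytes, where Col4a5 was near 0, the shares were 0.282%, 0.392%, 0.568% and 1.34% at median depths of 3202.5, 2957, 5228 and 5946 UMIs. With every nucleus thinned to 1000 UMIs, the OPC shares were 0.224%, 0.218%, 0.457% and 1.46%, so few nuclei remained to compare. Within the cluster that held most COL OPCs, Col4a5 was at 5.17 and 3.64 CPM in 74 and 88 NS nuclei and at 18.6 and 31.9 CPM in 200 and 284 COL nuclei. In the cluster that held most NS OPCs, Col4a5 was at 0.00 and 0.76 CPM in NS.

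Fibroblast markers moved with this result. Their summed level in OPC nuclei was 8.003 and 18.2 CPM in NS and 94.2 and 33.6 CPM in COL, with 4, 5, 6 and 8 of 10 markers detected in NS1, NS2, COL1 and COL2. In OPC nuclei without a UMI of any fibroblast marker (430, 434, 202 and 278 nuclei), Col4a5 was at 1.14 and 0.90 CPM in NS and 17.7 and 24.6 CPM in COL. By the balance of precursor markers (Pdgfra, Cspg4, C1ql1) and markers of commitment (Gpr17, Enpp6, Bmp4), most OPC nuclei were precursors, and among these Col4a5 was at 0.90, 1.56, 16.5 and 28.3 CPM in NS1, NS2, COL1 and COL2. Among committed nuclei the groups overlapped, at 2.34 and 2.59 CPM in NS and 0.00 and 9.54 CPM in COL (1, 1, 0 and 7 UMIs). Nuclei with a tie (14, 22, 13 and 25) were at 0.00 and 0.00 CPM in NS and 84.7 and 76.9 CPM in COL.

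The neighbouring gene Col4a6 was also higher in OPCs, from 0.36 and 1.24 CPM in NS to 17.2 and 22.5 CPM in COL (log2 change 4.66 ± 0.53, adjusted p = 0.00115). It had 1 and 3 UMIs in NS and 32 and 71 in COL, so it too passed the filter on low counts through its COL libraries. Of the 22 OPC nuclei of COL2 with a Col4a6 UMI, 16 also held one of Col4a5, and in COL1 this was 4 of 6. Among all 14080 genes tested in OPCs, 13.4% passed in either direction and 829 genes were higher. Of the 13 tested genes of collagen assembly and crosslinking, 4 passed and all were higher: P3h2, a prolyl 3-hydroxylase (1.11 ± 0.17, adjusted p = 0.00499), peroxidasin, Pxdn, which crosslinks type IV collagen (1.00 ± 0.19, adjusted p = 0.0107), transglutaminase Tgm2 (2.21 ± 0.48, adjusted p = 0.0162), and the lysyl hydroxylase Plod2 (0.81 ± 0.24, adjusted p = 0.0492). Of the 12 tested receptors, 1 passed, the collagen-binding integrin alpha chain Itga1 (2.33 ± 0.52, adjusted p = 0.0182), a share no higher than that of all genes. Of the 11 genes of the interstitial list 2 were tested, and both were called higher, tenascin C, Tnc (4.32 ± 0.20, adjusted p = 6.31e-06), and Fn1 (2.64 ± 0.40, adjusted p = 0.00474). Tgm2, Itga1 and Fn1 were at few UMIs in NS and passed the filter through COL. Tgm2 had 6 and 5 UMIs in NS and 14 and 36 in COL, Itga1 4 and 6 against 13 and 37, and Fn1 9 and 5 against 29 and 54. Macrophage markers were higher in COL OPCs as well, with a summed level of 2.91 and 4.56 CPM in NS and 17.8 and 39.9 CPM in COL. COL macrophages had Fn1 at 615 and 455 CPM, Tgm2 at 196 and 138 CPM and Tnc at 4.55 and 7.71 CPM. The part of macrophage RNA in the values of Fn1 and Tgm2 was not tested. The laminin members Lama2, Lama4 and Lamc1 did not pass in OPCs (log2 changes 0.00 ± 0.32, 0.29 ± 0.16 and 0.31 ± 0.16).

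**Figure D4:**
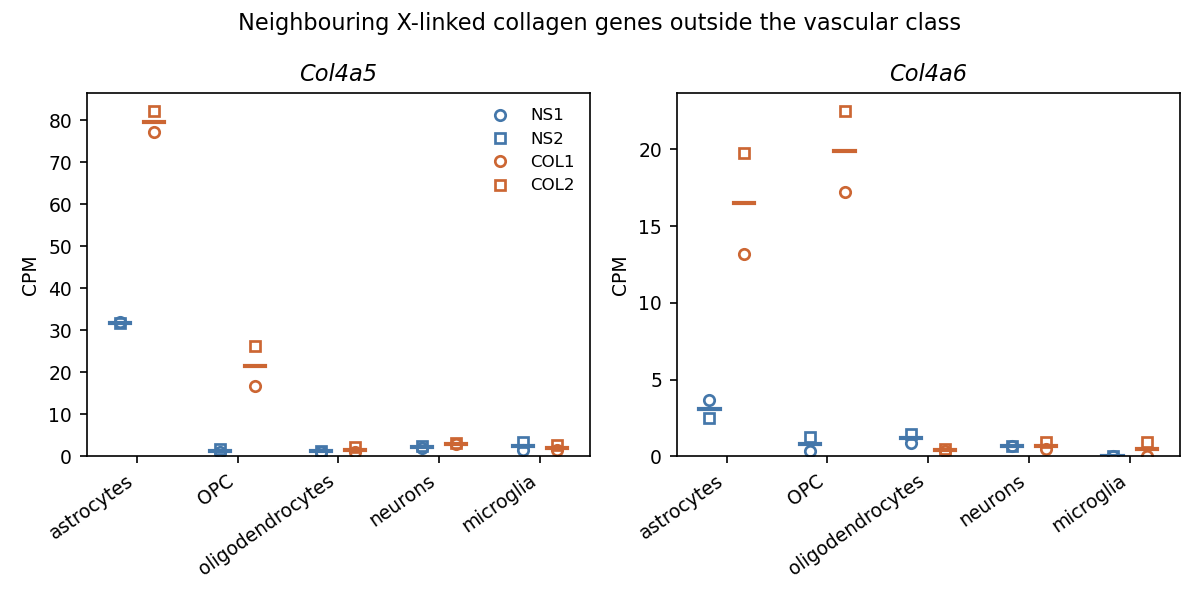
Level in CPM of Col4a5 and of its neighbour Col4a6 in 5 classes of nuclei outside the vessels; points are single libraries (circles, replicate 1; squares, replicate 2) and lines group means. Both genes are higher in both COL libraries in astrocytes and OPCs, and lie at or below 3.35 CPM in oligodendrocytes, neurons and microglia.

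In astrocytes 3 members rose, where 5.48% of all genes tested were higher. Col4a5 went from 31.9 and 31.7 CPM in NS to 77.1 and 82.3 CPM in COL (183, 141, 111 and 183 UMIs), a log2 change of 1.37 ± 0.17 (adjusted p = 0.00264), and it passed under each of the 13 alternatives tried. Within cluster 18, which held most COL astrocytes, it was at 60.6 and 177 CPM in 10 and 4 NS nuclei and at 74.5 and 93.2 CPM in COL. The groups overlapped there and in cluster 26 (20.7 and 36.0 against 41.2 and 32.7 CPM). They were apart in cluster 23 (13.1 and 10.1 against 41.5 and 23.3 CPM). The counts there were small, with 12 and 5 UMIs in 73 and 42 NS nuclei and 4 and 4 UMIs in 5 and 9 COL nuclei. The summed level of fibroblast markers overlapped between the groups, at 72.2 and 43.4 CPM in NS astrocytes and 51.4 and 39.1 CPM in COL astrocytes. Lamc1 was at 33.8 and 37.7 CPM in NS and 59.7 and 56.2 CPM in COL (0.74 ± 0.19, adjusted p = 0.0300). Col4a1 was at 14.99 and 13.9 against 25.0 and 27.0 CPM (0.89 ± 0.23, adjusted p = 0.0337). All 3 had groups apart, but Lamc1 and Col4a1 were past the threshold in edgeR and not in DESeq2 (adjusted p = 0.0926 and 0.150). Lamc1 also missed it without NS replicate 1 (0.231), without NS replicate 2 (0.0681) and without COL replicate 1 (0.0836). Col4a1 missed it without any single library (0.0598 to 0.134). After thinning to 2000 UMIs per nucleus, both missed it (0.0723 for Lamc1 and 0.0822 for Col4a1). Neuron markers summed to 1464 and 1310 CPM in NS astrocytes and 1712 and 1363 CPM in COL astrocytes. In neurons they summed to 6322 and 6232 CPM in NS and 7241 and 6275 CPM in COL. The part of neuronal RNA in the astrocyte values of Col4a1 and Lamc1 was not tested.

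Col4a6 was at 3.66 and 2.47 CPM in NS astrocytes and 13.2 and 19.8 CPM in COL (21, 11, 19 and 44 UMIs). It needed its COL libraries to pass the filter, so its fitted change (2.47 ± 0.38, adjusted p = 0.00524) is a description. Of the 17 tested basement membrane proteins of the other list, 3 were called higher and 0 lower, Col4a6 and also Fras1 and Frem2, which belong to an adhesion complex of basement membranes. Of 12 tested genes of collagen assembly and crosslinking 1 passed, P3h2 (1.51 ± 0.26). Of 14 tested receptors 1 passed, the collagen receptor Ddr2 (1.79 ± 0.33). Of 5 tested genes of the interstitial list 3 passed, Fn1, Tnc and Col1a2. Among all genes tested in astrocytes, 13.5% passed in either direction. Fn1 had 10 and 2 UMIs in NS astrocytes and passed the filter through COL. Macrophage markers were at 7.84 and 13.5 CPM in NS and 23.6 and 41.4 CPM in COL astrocytes. Their part in the results for Fn1 and for Lamc1, both found in COL macrophages, was not tested. Nid1 had a fitted change in astrocytes of -1.86 ± 0.63 and did not pass (adjusted p = 0.0756), from 25 and 18 UMIs in NS and 2 and 2 UMIs in COL. With 1 more marker required of each nucleus, its change was -0.30 (adjusted p = 0.811). Lama2, the most abundant member in astrocytes, changed by 0.16 ± 0.17 (adjusted p = 0.547).

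**Figure D5:**
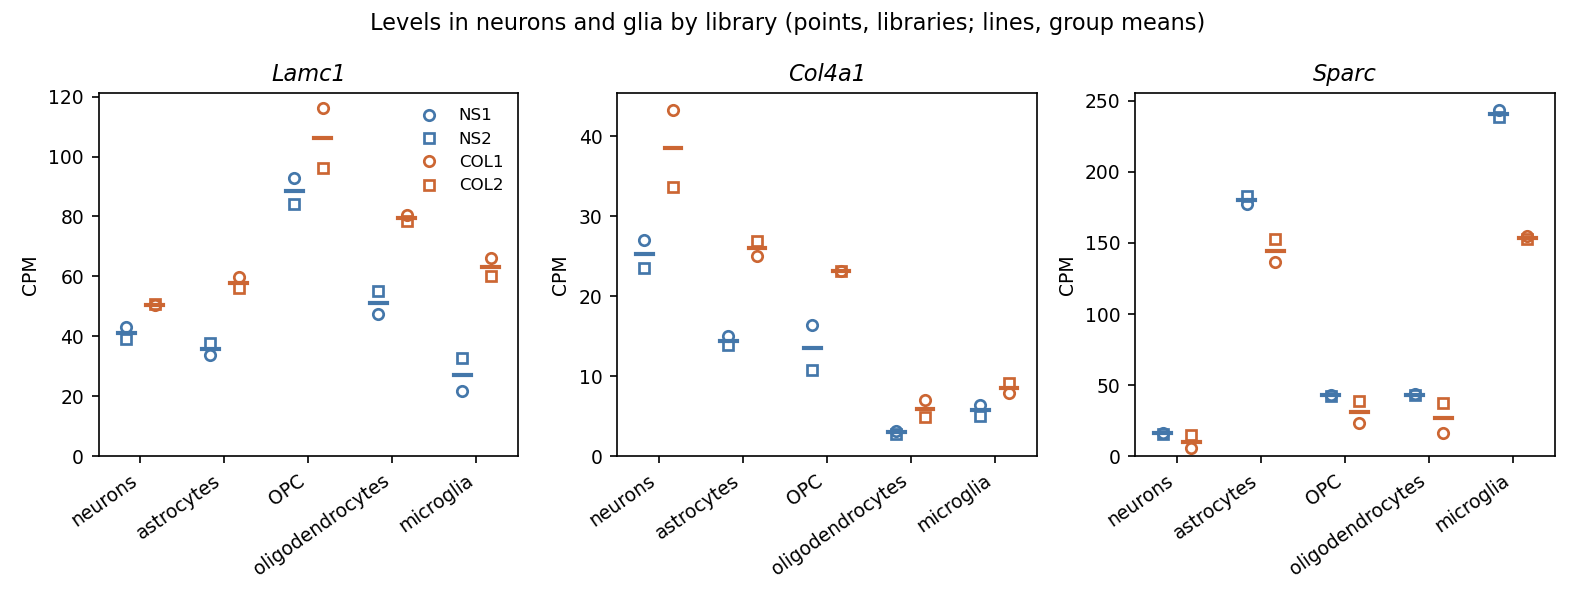
Level in CPM of Lamc1, Col4a1 and Sparc in neurons and 4 classes of glia; points are single libraries (circles, replicate 1; squares, replicate 2) and lines group means. Lamc1 and Col4a1 are higher in both COL libraries than in both NS libraries in all 5 classes, and Sparc in microglia is at 243 and 239 CPM in NS and 155 and 153 CPM in COL.

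Lamc1 passed the threshold in 3 classes, more than any other member. In oligodendrocytes it went from 47.4 and 55.2 CPM in NS to 80.3 and 78.4 CPM in COL (0.72 ± 0.18, adjusted p = 0.0213), although without NS replicate 1 the adjusted p was 0.235. In microglia it went from 21.8 and 32.7 to 66.0 and 60.3 CPM (27, 39, 134 and 198 UMIs), a log2 change of 1.26 ± 0.25 (adjusted p = 0.0081). Macrophage markers also moved in these microglial nuclei, with a summed level of 7.27 and 5.86 CPM in NS and 108 and 144 CPM in COL, and macrophages themselves had Lamc1 at 98.6 and 69.4 CPM in COL. Their part in the result was not tested. In OPCs, neurons and the vascular class, the changes of Lamc1 were 0.31 ± 0.16, 0.46 ± 0.13 and 0.86 ± 0.40 and did not pass. The effect in microglia was not shown to differ from the mean of the other classes (0.75 ± 0.25, adjusted p = 0.117).

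Sparc was the only member that was lower past the threshold in a tested class. In microglia it was at 243 and 239 CPM in NS and at 155 and 153 CPM in COL (-0.60 ± 0.14, adjusted p = 0.0139), with no overlap. The change kept its direction in all 13 alternatives and missed the threshold with DESeq2 (0.0646), without NS replicate 1 (0.123) and without NS replicate 2 (0.140). Astrocyte markers were lower in COL microglia too (644 and 629 against 284 and 245 CPM in sum), and macrophages of COL had 9.86 and 33.9 CPM of Sparc. Their part was not tested. Sparc also had negative fitted changes in neurons (-0.57), oligodendrocytes (-0.60), OPCs (-0.37) and astrocytes (-0.27), none of which passed. In the test of the difference between classes, the microglial effect was not shown to differ from the mean of the others (-0.31 ± 0.25, adjusted p = 0.660). In the vascular class Sparc had a fitted change of 0.92 ± 0.37 that did not pass (adjusted p = 0.246).

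In microglia, 19.8% of all genes tested passed in either direction. Of 8 tested basement membrane proteins of the other list, 1 was higher and 1 lower. Of 10 tested genes of collagen assembly and crosslinking, 2 were higher and 1 lower. Of 9 tested receptors 1 was higher, and of 2 tested genes of the interstitial list 1 was higher. That gene, Fn1, was higher after collagenase (6.54 ± 0.49, adjusted p = 6.32e-05). It had only 2 and 1 UMIs in NS against 174 and 482 in COL, so it passed the filter through COL and the size of its change is not well determined. Also higher were Tgm2 (2.41 ± 0.48) and Lama3, a laminin alpha chain (2.11 ± 0.59), as well as P4hb (0.86 ± 0.25) and the laminin-binding integrin chain Itga6 (0.60 ± 0.14). Lama3 was at 2.38 and 1.71 CPM in NS and at 7.22 and 10.6 CPM in COL (scaled by TMM), and Tgm2 at 12 and 4 UMIs against 90 and 82, so both also needed COL to pass the filter. The macrophage markers given above for Lamc1 moved with Fn1 and Tgm2 too, which were abundant in COL macrophages, and their part was not tested. The heparan sulphate proteoglycan agrin, Agrn, fell in microglia (-0.70 ± 0.21, adjusted p = 0.0408) and in oligodendrocytes (-0.58 ± 0.17, adjusted p = 0.0341). P3h2 went opposite ways, lower in microglia (-0.75 ± 0.17, adjusted p = 0.0125) and higher in oligodendrocytes (1.09 ± 0.31, adjusted p = 0.0335), OPCs and astrocytes. The part of the same macrophage markers' shift in the microglial fall of P3h2 was not tested. In oligodendrocytes, where 21.4% of all genes tested were called, the 4 other lists had 15, 13, 13 and 6 genes tested, of which 9 passed in all, a share no higher than that. Of these 8 were higher and Agrn lower, among them Fn1 (3.16 ± 0.36), Tgm2 (2.98 ± 0.49), Tnc (1.86 ± 0.37), Col6a2 (1.82 ± 0.43), Itga7 (1.76 ± 0.46) and Fras1 (0.97 ± 0.23). Tgm2 had 3 and 7 UMIs in NS oligodendrocytes and 33 and 43 in COL, and passed the filter through COL, as did Col6a2.

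In neurons no member passed, and only 2 of 23424 genes did. At an unadjusted p under 0.05, 6552 genes and the members Col4a1 and Lamc1 passed. DESeq2 called 2356 genes and 1 member, Col4a1 (0.78, adjusted p = 0.0308). Col4a1 was at 27.1 and 23.5 CPM in NS and 43.3 and 33.7 CPM in COL (edgeR 0.78 ± 0.21, adjusted p = 0.106). In 2 subsets of neurons the groups were apart: nuclei with glutamatergic markers were at 37.7 and 26.2 against 45.9 and 39.1 CPM, and those with GABA markers at 21.4 and 19.8 against 36.3 and 30.9 CPM. The first numbered 502, 643, 866 and 444 nuclei and the second 1294, 779, 478 and 567, in NS1, NS2, COL1 and COL2. Many of the 4468, 3709, 2810 and 2447 neurons were thus in neither. Col4a2, which shares the promoter region of Col4a1, was at 86.4, 68.6, 74.4 and 79.4 CPM with overlapping groups (0.15 ± 0.14, adjusted p = 0.491). The difference between these changes was not tested.

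Over all nuclei of a library, where more nuclei of a class and more RNA per nucleus cannot be told apart, 9.45% of 25570 genes passed and 0 of 10 members did. Lamc1 came closest, at 44.8 and 43.4 CPM in NS and 60.7 and 59.7 CPM in COL (0.60 ± 0.15, adjusted p = 0.05003, just above the threshold), then Col4a1, at 22.5 and 17.97 against 37.2 and 27.9 CPM (0.86 ± 0.23, adjusted p = 0.0604). At an unadjusted p under 0.05, 4 members passed (Lamc1, Col4a1, Lama4 and Col4a5), as did 8604 of the 25570 genes. With DESeq2 2 members were called, Lamc1 and Col4a1, among 4533 genes. Both counts are near those over all genes. The 4 other lists had 23, 15, 14 and 11 genes tested over all nuclei, of which 7 passed in all, near the 9.45% of all genes. These 7, Col4a6, Tgm2, Itga1, Fn1, Col3a1, Col1a1 and Col5a1, were all higher.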

How the data were processed

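Single-nucleus libraries (10x 3' v2) were aligned to mm10 with Cell Ranger 1.2.0 per the labels and the study's methods; whether intronic reads were counted is not given in the sources used here. The deposited matrices hold raw UMI counts per gene and nucleus. Nuclei with more than 50 genes and under 5% mitochondrial counts were kept. The members, gene lists and comparisons were chosen with earlier results of these data known. Each nucleus took the class whose markers had the highest mean scaled level, with at least 1 in 4 markers (minimum 2) detected and a lead of 0.25, otherwise none. That scoring rule and the merged vascular class were set after the files were seen. Counts were summed per library and class, and tested with edgeR 4.0.16 (quasi-likelihood, TMM, filterByExpr, Benjamini-Hochberg over all genes, threshold 0.05). The same code was tested on simulated data. CPM are the UMIs of a gene divided by all UMIs of that class and library, times 1000000, and log2 changes use TMM. Alternatives were DESeq2 1.42.0, RLE factors, no filter, a replicate block, thinning, stricter markers, Seurat 5.3.0 clusters (made without the members), doublet removal, a minimum of 500 genes and each library left out. Doublets were kept in the values reported. Named genes are all members, the list genes with the smallest adjusted p (3 per list and comparison, or more, where so many passed), and the 5 most like Col4a1. 1 listed gene is not reported here. Replicate libraries were not stated to be independent beyond their pools, so p-values measure the spread between these libraries, which may be technical. In the test of vascular nuclei against the rest, that spread was pooled over genes, so a gene's p there does not measure its own spread between libraries. For the difference between classes, a gene's spread was estimated from all classes together, so that p does not measure the spread within a single class.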

Additional observations from a re-analysis of the deposited data

Results flagged for a closer look

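The effect of collagenase on Col4a1 was larger in vascular nuclei than the mean of its effects in the other classes of nuclei, by 2.08 on the log2 scale (edgeR's quasi-likelihood test of the difference with the library as a block, adjusted p = 0.00143), and after thinning to 2000 UMIs per nucleus by 1.01 (adjusted p = 0.571). For Col4a5 in OPCs the same test gave 3.30 (adjusted p = 0.00054), and after thinning 3.05 with an adjusted p of 0.146. Col4a5 had 3 and 4 UMIs in NS OPCs and 31 and 83 in COL OPCs and passed the OPC filter on low counts only through COL, so its values are a description and the size of the difference is not well determined. No other member passed this test, among the 10 members in 6 classes. The test estimated a gene's spread from all classes together, so its p-values do not measure the spread within a single class.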

How the results depend on the processing

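With 2 pooled libraries per group, few vascular nuclei and deeper COL nuclei, counts of called members moved with the setting; called and tested genes overall are in parentheses. DESeq2 called 1 in neurons (2356 of 23424), 1 in astrocytes (1100 of 14896), 1 in microglia (1360 of 13121), 1 in the vascular class (43 of 5647) and 2 over all nuclei (4533 of 25570), and RLE size factors 1 in the vascular class (15 of 5647). Without the filter on low counts there were 1 in neurons (4180 of 38236), 3 in oligodendrocytes (5145 of 31345), 2 in OPCs (3056 of 27825), 2 in the vascular class (337 of 21455) and 2 over all nuclei (6893 of 40088), and for the difference between classes, over 39565 genes, 1 in oligodendrocytes (976), 2 in microglia (807) and 4 in the vascular class (319). Thinning gave 2 in oligodendrocytes (3194 of 14098), 0 in OPCs (1114 of 9637), 1 in astrocytes (1305 of 12004), 2 over all nuclei (3961 of 20814), and 0 for the difference in OPCs (106 of 14972) and in the vascular class (23 of 14972). Requiring 1 more marker gave 2 in oligodendrocytes (3760 of 17496), 2 in OPCs (1914 of 13822) and 2 for the difference in neurons (515 of 18518). Seurat clusters gave 2 in oligodendrocytes (3832 of 17145) and 1 in the vascular class (100 of 4469), and vascular nuclei of the vascular cluster (an alternative added after seeing the data) gave 1 (82 of 3704). The cause was not tested.

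With the replicate number as a block, 3 members were called in oligodendrocytes, 2 in OPCs, 1 in the vascular class and 2 over all nuclei (the last an alternative added later). Calls over all genes rose too, to 5521 of 17375 in oligodendrocytes, 2980 of 14080 in OPCs, 48 of 5647 in the vascular class and 5563 of 25570 over all nuclei. The numbers do not establish pairs: deviations of same-numbered libraries correlated at -0.135 (neurons) to 0.179 (oligodendrocytes). In neurons the block called 1132 genes against 2 without it, and a crossed pairing, added after seeing the data, 3.

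Leaving out 1 library gave 0 to 2 members in neurons, 0 to 3 in oligodendrocytes, 1 to 2 in astrocytes, 1 to 3 in microglia, 0 to 6 in the vascular class and 0 to 3 over all nuclei. The highest count came without COL replicate 2 in each of these but microglia, where it came without COL replicate 1. Calls over all genes were highest without COL replicate 2 in each of these, microglia included. Leaving out 1 library thus moved calls over all genes as well, but in microglia the members and all genes peaked at different settings. For the difference between classes it gave 0 to 2 in neurons (134 to 695 genes), 0 to 1 in oligodendrocytes (238 to 1211), 0 to 2 in microglia (237 to 581) and 1 to 3 in the vascular class (96 to 369). The vascular share difference ranged from -0.0304 to 0.199 percentage points when 1 library was left out, and was below 0 without COL replicate 2 and without NS replicate 1 (-0.0009). Col4a1 in the vascular class ranged from 1.79 to 3.45 and passed under 9 of 14 settings, but not without NS replicate 2 (adjusted p = 0.175), thinned (0.141), with doublets removed (0.0739), with 1 more marker (0.0597) or with at least 500 genes (0.0521, as in the value reported). For single genes, 294 values kept their direction and side of the threshold, 33 gained significance and 17 lost it. The 294 include vascular nuclei against the rest, where every member passed throughout, and results past the threshold in neither setting. Among changes after collagenase, Col4a1 in astrocytes lost significance in 6 of 13 settings, Lamc1 there in 5 and Sparc in microglia in 3. Lamc1 in oligodendrocytes lost it in 1 of 13, and Col4a5 in astrocytes and Lamc1 in microglia in 0. Col4a5 in OPCs kept it in each of 12, but could not be tested after thinning. Thinning was not run for the proportions of endothelial, mural and fibroblast nuclei.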
